A study of Mus musculus with 2 samples.

Results

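The interleukin-6 family comprises cytokines that share the receptor chain gp130. It was followed here through 10 genes, the ligands Il6, Lif, Il11, Osm, Clcf1 and Ctf1 and the receptor chains Il6st, Il6ra, Lifr and Osmr. They were matched by symbol to probe sets that the platform annotation assigns to a single gene, and all 10 were found, each by 1 probe set, among 19751 named genes. The set was chosen by family membership with the log2 intensities of both arrays in view, so levels and differences are given as a description without a test. The series holds 1 group, cultured fibroblastic reticular cells (FRCs) from lymph nodes of C57BL6/J mice, 4 to 6 weeks of age and without treatment, measured on 2 replicate arrays. FRCs are fibroblasts that form the supporting mesh of the lymph node. The labels call the cells purified and state that lymph node stromal cells were expanded in αMEM medium containing 10% fetal calf serum over 7 to 10 days, so the values describe cells in culture rather than in the node. Whether the replicates came from separate mice or cultures is not stated in the labels, and their spread may be technical in part.

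Family cytokines act by bringing gp130, the product of Il6st, together with a second signalling chain. IL-6 and IL-11 first bind a receptor of their own and then pair 2 gp130 chains, LIF, cardiotrophin-1 and cardiotrophin-like cytokine use gp130 with the LIF receptor, and mouse oncostatin M uses mainly gp130 with the oncostatin M receptor. The chains carry JAK kinases, which phosphorylate STAT3, and the STAT3 target SOCS3 shuts the signal down. Fibroblasts are a known source of IL-6 and LIF after stimulation by interleukin-1 or TNF, which act through NF-kB, AP-1 and C/EBP factors on the Il6 promoter. In lymphoid tissue IL-6 is known for its effects on B cells and T helper cells.

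Il6 and Lif were the members that differed most between the replicates, and the data below turn on them, so their promoters are shown first. The windows hold the 250 bases before the annotated transcription start, from RefSeq on build GRCm38.p6, printed from 5′ to 3′ on the strand of the gene. Capitals mark matches to 3 of the 6 motifs searched on both strands, namely the NF-kB consensus, C/EBP (TTGCNNAA) and AP-1 (TGANTCA). The Il6 window lies at chr5:30012864-30013113 on the plus strand and the Lif window at chr11:4257318-4257567 on the plus strand.
Il6: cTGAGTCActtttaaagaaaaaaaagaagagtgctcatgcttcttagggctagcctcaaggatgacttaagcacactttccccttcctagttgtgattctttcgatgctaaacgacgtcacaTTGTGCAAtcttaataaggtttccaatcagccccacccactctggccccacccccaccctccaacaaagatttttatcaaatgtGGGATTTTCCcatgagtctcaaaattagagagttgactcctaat
Lif: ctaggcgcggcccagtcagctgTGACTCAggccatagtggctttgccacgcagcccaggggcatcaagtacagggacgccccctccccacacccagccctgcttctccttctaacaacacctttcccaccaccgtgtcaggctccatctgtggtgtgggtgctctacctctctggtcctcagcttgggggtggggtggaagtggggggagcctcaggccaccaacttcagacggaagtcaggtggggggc

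In the Il6 window the NF-kB match spanned bases -44 to -35 from the start, the C/EBP match, on the opposite strand, bases -128 to -121, and the AP-1 match bases -249 to -243. The Lif window held 1 match, for AP-1, at bases -228 to -222. Another AP-1 match lay at bases -98 to -92 of a window of Il11, whose stretch with 10 flanking bases on each side (chr7:4778223-4778249, minus strand) is shown for comparison with the other 2.
Il11: ggagggagggTGAGTCAggatgtgtca
The set of promoter sequences used held 8 of the 10 members, which gave 10 windows because Il11 and Lifr have 2 annotated starts each. Osm and Clcf1 had no entry in that set. The AP-1 motif was in 3 of the 10 windows, those of Il6, Lif and Il11, against 6.75% of all 32851 promoter windows of the same length. Il11 had a log2 difference of -0.03 (replicate 1 minus replicate 2), against 1.25 for Il6 and 1.09 for Lif. A link of the motif to these differences was not tested. The NF-kB motif, present in 3.9% of all windows, and the C/EBP motif, in 9.56%, were each in 1 member window, that of Il6. The NF-kB result depended on the pattern, since a shorter and looser one, found in 13.0% of all windows, matched in 3 member windows, those of Il6, Il6ra and Osmr. The cyclic AMP response motif CRE (TGACGTCA, 1.55% of windows), a STAT motif (TTCNNNGAA, 7.02%) and a TATA motif (TATAAA, 12.4%) were in 0 of the 10 windows. No 2 matches overlapped. A match describes letters in the window and not a bound site.

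**Figure D1:**
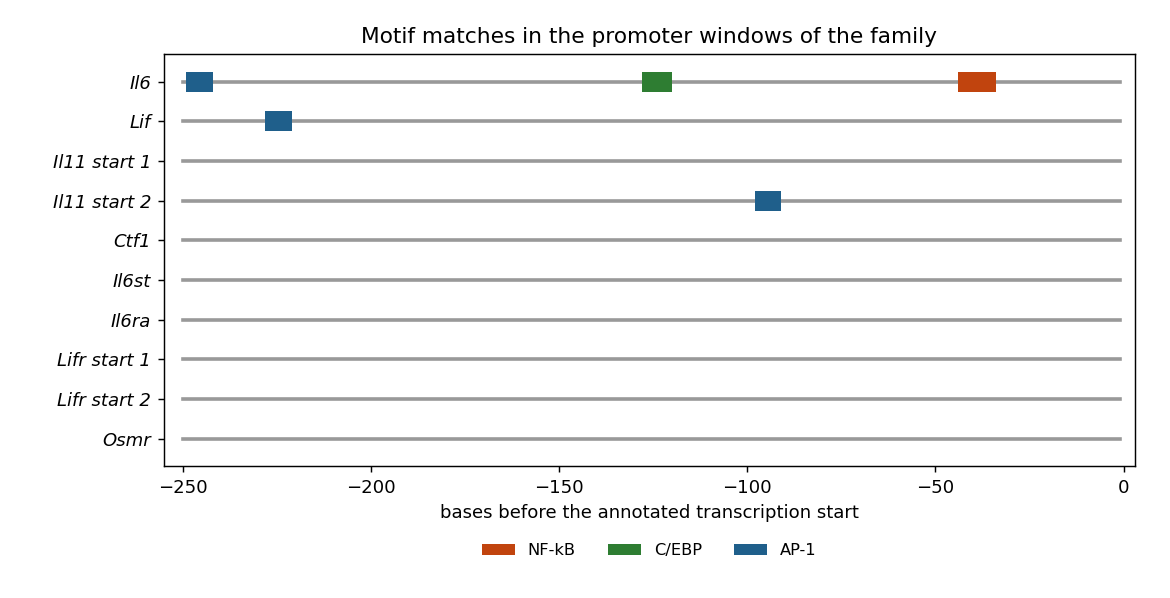
Position of motif matches in the 10 promoter windows of 8 family genes, with each window drawn as a grey line over the 250 bases before the annotated start and each match as a coloured block; start 1 and start 2 are the 2 annotated starts of a gene. The Il6 window has 3 matches, those of Lif and of the second Il11 start have 1 AP-1 match each, and the other 7 windows have none.

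The deposited values are RMA intensities (robust multi-array average) on a linear scale, and levels below are their log2 values. A gene counted as above background when it passed, on both arrays, the 95th percentile of the olfactory receptor probe sets, which was 7.15 on replicate 1 and 7.17 on replicate 2. A stricter limit, the 95th percentile of genes known from single organs (liver, eye or testis, for example), was 8.08 and 8.18. Of the 10 members, 9 passed the first limit, where 67.3% of all named genes passed, and 8 passed the stricter one, where 49.8% passed. The same 2 shares of all named genes stand beside the list counts below. Because 16 of 34 tissue-restricted genes (47.1%) passed the first limit, a gene between the 2 limits is near background here. Probes differ in how strongly they bind, so no level of a gene is set against that of another.

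Among the ligands, Il6 gave an intensity of 4340 on replicate 1 and 1822 on replicate 2. On the log2 scale this was 12.08 and 10.83, or 11.46 ± 0.89 (SD, n = 2), at 4.93 and 3.66 above the olfactory receptor limits. The signal was well above both limits on either array and was clearly higher on replicate 1. Il6 encodes interleukin-6, the founding cytokine of the family.

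Lif, which encodes leukemia inhibitory factor, gave 1620 on replicate 1 and 758.7 on replicate 2. Its log2 levels were 10.66 and 9.57, with a mean of 10.11 ± 0.77 (SD, n = 2). As for Il6, replicate 1 was the higher array and both arrays passed both limits.

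Il11, whose product acts through its own receptor and gp130 and is known in fibroblasts for a part in fibrosis, gave 623.6 and 636.8 on replicates 1 and 2. The log2 levels of 9.28 and 9.31 had a mean of 9.30 ± 0.02 (SD, n = 2), so the arrays were nearly equal and both above both limits. Clcf1, which encodes cardiotrophin-like cytokine, gave 1556 and 1820, or log2 levels of 10.60 and 10.83 with a mean of 10.72 ± 0.16 (SD, n = 2). It was above both limits, with replicate 2 slightly higher.

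The last 2 ligands were at or near background. Ctf1, which encodes cardiotrophin-1, gave 174.6 and 187.5, or log2 levels of 7.45 and 7.55. These lay 0.30 and 0.38 above the olfactory receptor limits and stood at -0.64 and -0.63 relative to the tissue-restricted limits. Osm, which encodes oncostatin M, a cytokine made mainly by leukocytes, gave 95.9 and 102.7, or log2 levels of 6.58 and 6.68, and was below both limits on both arrays.

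All 4 receptor genes passed both limits on both arrays. Il6st, which encodes the shared chain gp130, gave 4254 and 5205 on replicates 1 and 2, with log2 levels of 12.05 and 12.35 and a mean of 12.20 ± 0.21 (SD, n = 2). Osmr, the second chain of the oncostatin M receptor, gave 2885 and 3123, with log2 levels of 11.49 and 11.61 and a mean of 11.55 ± 0.08 (SD, n = 2). In each gene replicate 2 was the higher array by a small margin.

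Il6ra, which encodes the receptor that binds IL-6 itself, gave 501.2 and 492.6, or log2 levels of 8.97 and 8.94 with a mean of 8.96 ± 0.02 (SD, n = 2), and lay 0.88 and 0.76 above the tissue-restricted limits. Lifr, the LIF receptor chain, gave 295.2 and 388.0, or log2 levels of 8.21 and 8.60 with a mean of 8.40 ± 0.28 (SD, n = 2). Lifr was the receptor closest to the stricter limits, at 0.12 and 0.42 above them.

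**Figure D2:**
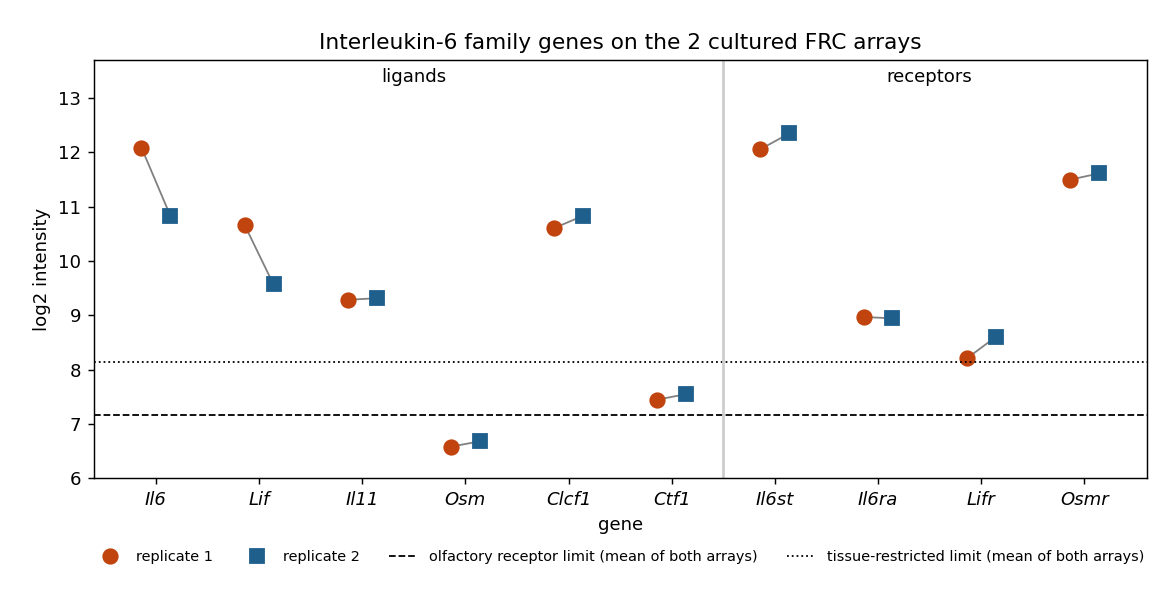
Log2 intensity of the 10 family genes on the replicate 1 array (circles, left) and the replicate 2 array (squares, right), with a line joining the arrays of a gene, the olfactory receptor limit dashed and the tissue-restricted limit dotted. Il6 and Lif are higher on replicate 1, Ctf1 lies between the limits and Osm below both; probes differ in binding, so heights of different genes are not comparable.

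The difference between the replicates separated Il6 and Lif from the other members. On replicate 1, Il6 was 2.38-fold higher (log2 difference 1.25, replicate 1 minus replicate 2) and Lif 2.13-fold higher (1.09). Of the 9 members above background, 2 were at least 2-fold higher on replicate 1 and 0 on replicate 2. The same was found in 0.368% and 1.05% of the 13577 genes with a mean level over 7.16, the mean of the 2 limits. An absolute difference as large as that of Il6 was seen in 103 of these genes (0.759%) and one as large as that of Lif in 150 (1.10%). Each difference rests on 1 array a side, so no p-value was computed and no replicate check exists. In bulk RNA, more cells that express a gene and more RNA per cell cannot be told apart.

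The other 7 members above background lay between -0.39 and 0.03, and their folds between 1.02 and 1.31. Lifr had a difference of -0.39, Il6st -0.29, Clcf1 -0.23, Osmr -0.11, Ctf1 -0.10, Il11 -0.03 and Il6ra 0.03. Differences as large as that of Lifr occurred in 9.61% of genes, as large as that of Il6st in 16.0% and as large as that of Clcf1 in 23.1%. The 4 receptors had a median difference of -0.20, with 1 of 4 higher on replicate 1, against a median of -0.0046 over all 13577 genes. The median over the 9 members was -0.10. Of the 9, 3 were higher on replicate 1 and 6 on replicate 2, where 48.8% of the 13577 genes were higher on replicate 1.

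**Figure D3:**
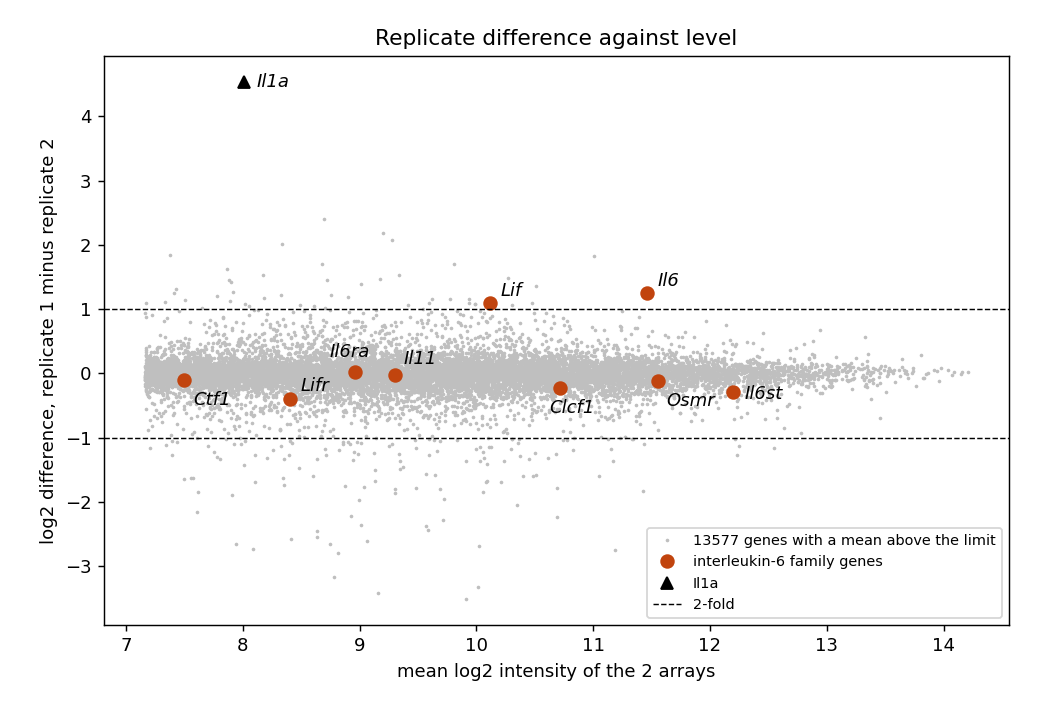
Log2 difference, replicate 1 minus replicate 2, against the mean log2 intensity for the 13577 genes with a mean above the limit (grey), with the 9 family genes above background in orange and Il1a as a black triangle. Dashed lines mark 2-fold; Il6 (1.25) and Lif (1.09) lie above the upper line, the other 7 family genes lie between -0.39 and 0.03, and Il1a is drawn at 4.53 from its measured values although its replicate 2 signal was below background.

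Some members lie side by side in the genome. Lif and Osm are direct neighbours among protein-coding genes in the RefSeq table, yet Lif was above both limits with a difference of 1.09 while Osm was below both. The genes of the 2 receptor chains Osmr and Lifr are also direct neighbours, with differences of -0.11 and -0.39, as are Ctf1 and its paralog Ctf2 (-0.10 and -0.25). Beside Il6st lies Il31ra, the interleukin-31 receptor gene, which was below both limits (log2 5.71 and 5.69). The 3 genes whose replicate difference was nearest to that of Il6, among 13300 genes above the limit on both arrays, were the integrin gene Itga4 (1.27), the uridine phosphorylase gene Upp1 (1.22) and the mitotic motor gene Cenpe (1.21). Only 9 genes lay within 0.1 of it, and the likeness rests on 2 arrays. On replicate 2, Itga4 (log2 7.28), Upp1 (7.72) and Cenpe (8.15) lay between the 2 limits, near background, whereas Il6 was at 10.83.

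Of 10 further ligand and receptor genes of the family, 7 had a probe set of their own, and the others were not analysed here. The first limit was passed by 6 of the 7 and the stricter one by 3, namely Cntfr, Il27 and Il27ra. Cntfr, which encodes the receptor that binds ciliary neurotrophic factor, had log2 levels of 9.31 and 8.69 on replicates 1 and 2. It was 1.54-fold higher on replicate 1, and 0 of the 7 genes differed 2-fold. Il27 (8.49 and 8.38), a cytokine subunit of myeloid cells, and Il27ra (8.19 and 8.26) were close to the stricter limits, and the IL-27 partner subunit Ebi3 (7.32 and 7.32) was between the limits.

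The signalling genes below gp130 were present throughout. All 11 measured kinase, STAT and adaptor genes passed both limits, where 67.3% and 49.8% of all named genes passed. Of the 11, 0 differed 2-fold or 1.5-fold. Among the 13577 genes, 1.91% were at least 1.5-fold higher on replicate 1 and 2.87% on replicate 2, so 0 of 11 is near those shares. The kinase genes Jak1 (log2 11.88 on replicate 1 and 12.12 on replicate 2), Jak2 (10.50 and 10.37) and Tyk2 (9.10 and 9.15) lay well above the limits on each array. Stat3, the main transcription factor of the pathway, was at 11.20 and 11.32, and Ptpn11, which encodes the phosphatase SHP2 that links gp130 to the MAP kinase route, at 11.82 and 11.82. The median difference of the list was -0.04.

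All 9 negative regulators passed the first limit and 8 the stricter one, the exception being Ptpn6 (7.48 and 7.52), a phosphatase gene of blood cells. Ptpn2 passed as the average of 2 probe sets that disagreed, at 10.24 and 10.08 and at 6.79 and 6.76 on replicates 1 and 2. The lower probe set was below both limits, and with the lowest probe set of each gene 8 of the 9 passed the first limit. Socs3, the feedback inhibitor that binds gp130, averaged 8.39 and 8.25 on replicates 1 and 2, but its 2 probe sets disagreed, with 9.27 and 8.92 for one and 7.52 and 7.59 for the other. Cish, a feedback inhibitor known as a STAT5 target, was 1.74-fold higher on replicate 1 (9.75 and 8.95) and was picked out after its values were seen. None of the 9 differed 2-fold. The genes of the proteases ADAM10 and ADAM17, which can cut the IL-6 receptor from the cell surface, were above both limits, with 10.98 and 11.25 for Adam10 and 10.69 and 10.79 for Adam17.

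Among 22 genes known as STAT3 targets, 18 passed the first limit and 15 the stricter one. Those that did not pass on both arrays were the acute phase genes Lcn2 (7.45 and 7.07), Saa3 (6.72 and 6.44) and Hp (7.35 and 7.17), and Steap4 (6.92 and 6.93). Of the 20 with a mean above the limit, 14 were higher on replicate 1, against 48.8% of the 13577 genes, but 0 of the 14 by 2-fold. The 14 include Lcn2 and Hp, which passed the first limit on replicate 1 only and so add to this count through background signal. Bcl3, a modulator of NF-kB, had a difference of 0.26, Cebpb 0.21 and Cebpd 0.38, while Fos had -0.42, Icam1 -0.13 and Ccnd1 -0.10, and the list median was 0.15. The 1 gene past 2-fold ran the other way. Lbp, which encodes lipopolysaccharide binding protein, was at 7.49 on replicate 1 and 9.22 on replicate 2, a 3.32-fold excess on replicate 2. Because replicate 1 was below the tissue-restricted limit, the excess against that limit was at least 2.20-fold. The highest difference among the targets was 0.38.

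The genes that drive Il6 in fibroblasts were then examined. Of 4 inducing cytokine genes, Il1b (6.41 and 6.39), Tnf (6.52 and 6.57) and Il17a (6.92 and 6.99) were below both limits on both arrays. Il1a, which encodes interleukin-1 alpha, was at 10.27 on replicate 1 and 5.74 on replicate 2, where it was below background, so it was at least 8.58-fold higher on replicate 1. Against the stricter limit the bound was 4.26-fold. Il1a thus lay high on the array where Il6 and Lif were high, and its part in their difference was not tested. The replicates form only 1 contrast, in which 50 genes were at least 2-fold higher on replicate 1.

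Receptor genes for these inducers were mostly above background, and most were lower on replicate 1. Il1rap, the accessory chain of the interleukin-1 receptor, was at 9.93 and 10.10, and the TNF receptor gene Tnfrsf1a at 11.28 and 11.51. Il1r1 was not analysed here. The lipopolysaccharide receptor gene Tlr4 had the lowest difference of the list, -0.52 (8.71 and 9.23), and the prostaglandin receptor gene Ptger2 was below both limits (6.86 and 6.87). Of 10 genes of the whole list above the mean limit, 3 were higher on replicate 1, against 48.8% of the 13577 genes. These were the cytokine gene Il1a and, among the receptor and adaptor genes, Tlr2 (difference 0.04) and Myd88 (0.03). The median difference of the 10 was -0.23.

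All 12 measured transcription factors of the Il6 promoter passed the first limit and 11 the stricter one. The exception was Cebpd, with 8.09 and 7.72. Rela, the p65 subunit of NF-kB, was at 11.52 and 11.45, and Cebpb at 9.13 and 8.92. Nfkb1 was not analysed here. Higher on replicate 1 were 10 of the 12, against 48.8% of the 13577 genes, with a median difference of 0.11 and none past 2-fold. The largest was Nfkbiz, picked out after its values were seen, which encodes an NF-kB cofactor needed for Il6 induction and was 1.58-fold higher on replicate 1 (9.62 and 8.96). Cebpb, Cebpd and Junb, higher on replicate 1, and Fos, lower there, are also among the STAT3 targets above. The counts of the 2 lists are therefore not independent.

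Il6 mRNA is also controlled by its decay. All 7 genes of RNA-binding proteins known to act on it passed the first limit, and 6 passed the stricter one, the exception being Arid5a (8.22 and 8.17), whose product stabilises Il6 mRNA. Zc3h12a, which encodes the ribonuclease Regnase-1 that degrades Il6 mRNA, was 1.55-fold higher on replicate 1 (9.57 and 8.94). In this list 6 of 7 were higher on replicate 1, against 48.8% of the 13577 genes, with a median of 0.14 and 0 past 2-fold. Over the 8 lists together, 79 different genes were measured and 69 (87.3%) passed the first limit, against 67.3% of all named genes. Of the 72 with a mean above the limit, 5 were at least 1.5-fold higher on replicate 1 (Il1a, Cish, Nfkbiz, Zc3h12a and Cntfr) and 1 on replicate 2 (Lbp). The shares among the 13577 genes were 1.91% and 2.87%.

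**Figure D4:**
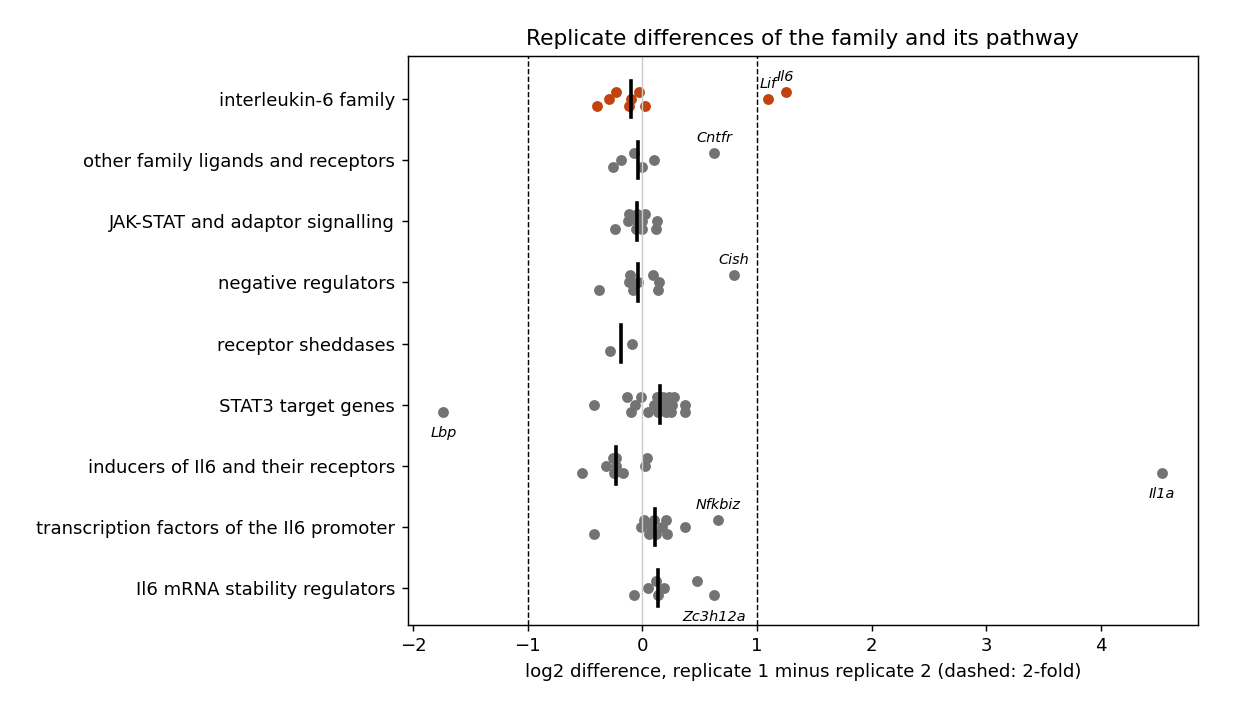
Log2 difference, replicate 1 minus replicate 2, of each gene with a mean above the limit (points) in the interleukin-6 family (orange) and the 8 pathway lists (grey), with the list median as a black bar and genes past 1.5-fold named; dashed lines mark 2-fold. Il6, Lif and Il1a lie past 2-fold on the replicate 1 side and Lbp on the replicate 2 side, while the list medians lie between -0.23 and 0.15.

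Markers of the cells were measured on the same arrays. All 10 FRC markers passed the first limit and 9 the stricter one, among them podoplanin (Pdpn, 12.60 and 12.73), the surface protein by which FRCs are sorted. The exception was the chemokine gene Ccl19, with averages of 8.17 and 7.85 on replicates 1 and 2. Its 4 probe sets disagreed, the highest at 10.11 and 10.24 and the lowest at 6.10 and 4.66. With the lowest probe set of each gene, 9 of the 10 markers passed the first limit. Of the 10 markers, 1 was higher on replicate 1, against 48.8% of the 13577 genes, and 9 were higher on replicate 2. Their summed intensity was 34059 on replicate 1 and 42675 on replicate 2. The collagen gene Col3a1 was 2.38-fold higher on replicate 2 (10.05 and 11.30), opposite to Il6. Leukocytes and endothelial cells can make several of the family cytokines. Of 10 macrophage and leukocyte markers, 4 passed the first limit and 2 the stricter one, Cd68 (9.09 and 8.96) and Cd53 (10.67 and 10.75). Ptprc (6.41 and 6.47), Itgam (6.20 and 6.30), Adgre1 (6.10 and 6.16) and Laptm5 (7.14 and 7.05) were below both limits on both arrays. Tyrobp (7.16 and 7.03) passed the first limit on replicate 1 only. The list's summed intensity was 3173 on replicate 1 and 3401 on replicate 2, of which Cd53 alone gave 1628 and 1726. Lyz2 was higher on replicate 2 (7.12 and 8.43) and passed the first limit only there. Csf1r (7.66 and 7.54) and Fcer1g (7.20 and 7.18) passed the first limit only. The first limit was passed by 3 of 7 T and B cell markers (Cd3e, Cd8a and Cd79b) and 4 of 9 endothelial markers (Cdh5, Kdr, Emcn and Flt4), and the stricter one by 0 of each. Their summed intensities were 841.3 and 827.4 for T and B cells and 1462 and 1504 for endothelium on replicates 1 and 2. Endothelial markers differed both ways. Flt4 (8.41 and 7.79) was 1.53-fold and Cdh5 (8.05 and 7.53) 1.44-fold higher on replicate 1, Emcn (7.64 and 8.40) was 1.70-fold higher and Tek (6.93 and 7.68), below background on replicate 1, at least 1.45-fold higher on replicate 2, and Prox1 was at 6.44 and 6.40. The part of these cells in the differences of Il6 and Lif was not tested.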

How the data were processed

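The series matrix table held 24679 probe sets on 2 arrays. The authors deposited intensities on a linear scale, made with RMA (version not stated) per the submitters' processing notes. RMA evens out the distributions of arrays and compresses differences at low signal. The set of arrays that RMA was run on is not stated. The medians were 286.0 and 285.7, and 2 arrays limit the precision.

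Computed here (Python 3.11.15, pandas 2.3.3, statsmodels 0.14.6) were log2 values of the deposited intensities, averaged over the probe sets of a gene. Only the 21354 probe sets with 1 gene in the platform annotation were used, so 1275 with several genes and 2050 with none were left out. Differences are replicate 1 minus replicate 2, over genes with a mean above the mean limit. Of the single-gene probe sets, 21277 were found by gene identifier in the RefSeq table of GRCm38.p6, used for names and gene order. With 1 group no test was run. The counting was tested on simulated data. The members, the lists (8 of the pathway and 4 of markers) and the motifs were chosen with earlier results of these data known. For NF-kB, 3 patterns were tried. The first, of 10 letters, matched 4.11% of all windows and 1 member window (Il6). A version of 9 letters matched 13.0% and 3 member windows (Il6, Il6ra and Osmr). The consensus used, of 10 letters with ambiguity codes, matched 3.9% and 1 (Il6), and was settled on after the matches of the others were seen.

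Named by rule were all members, a fixed set of list genes, list genes differing 2-fold, up to 5 genes on the smaller side of the limit, and the 3 genes nearest to Il6. Other genes named in the text, such as Cish, Nfkbiz, Tlr4, Il1rap, Ctf2, Il27, Fos and Tek, were picked after their values were seen. Alternatives changed the limit, probe set choice, normalisation, level filter, fold and arrays used.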

Additional observations from a re-analysis of the deposited data

How the results depend on the processing

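The count of 9 members above background stayed at 9 with the 90th percentile as the limit, after a further quantile normalisation and without replicate 1 or replicate 2. It was 8 with the 99th percentile and with the tissue-restricted limit, and Ctf1 was the gene lost under each. The count of 2 members with a 2-fold difference stayed at 2, Il6 and Lif, at 1.5-fold, after a further quantile normalisation and with the loess trend removed. The choice of probe set could not change the members' counts, since each has 1, and the other filters and floors could not change Il6 and Lif, which lie above both limits on both arrays. A lower percentile or leaving out an array could not lower the count of 9, and 1.5-fold could not lower the count of 2. Since Osm was below the limit on each array, leaving out an array could not raise the count of 9 either. The 69 pathway genes above background ranged from 60 to 74 over the other limits and probe set choices, and were 69 without replicate 1 and 72 without replicate 2. The 2 pathway genes past 2-fold became 6 at 1.5-fold and 1 with a filter at the tissue-restricted limit, since Il1a then falls below the filter. No alternative turned the direction of the difference in Il6 or Lif. Leaving out an array gives no value for a difference. No paired analysis was possible because there is only 1 group. Signal near background limits what can be said of Ctf1, Osm and Lifr.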
